A study of Mus musculus with 43 samples.

Results

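The Notch pathway was described here through 10 genes: 4 receptors (Notch1, Notch2, Notch3 and Notch4), the ligands Dll4 and Jag1, and the target genes Hes1, Hey1, Dtx1 and Nrarp. They were found by matching the mouse gene identifiers of the count and TPM tables to these symbols, and all 10 were present among 56941 gene identifiers. The genes were selected on earlier results of these libraries, among them the low Dtx1 level of donor cells; no other value behind the choice is recorded. The Dtx1 values of donor cells are therefore given as a description, and the adjusted p-values of the other genes place them among all genes tested but are not independent evidence for the choice of genes.

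The study asked how a small clone of blood cells carrying JAK2V617F, the activating kinase mutation of myeloproliferative neoplasms, affects the marrow it shares with normal cells. Mice that were wild type, CD45.1+ and not conditioned before transplantation received 5000000 JAK2V617F-positive whole marrow cells that carried CD45.2. After about 7 months, marrow was sorted into donor CD45.2+ cells (7 libraries) and host CD45.1+ cells (7 libraries, from the same 7 mice), and CD45.1+ cells were sorted from wild-type mice without a transplant (8 libraries). A stroma-enriched fraction, negative for CD45.1, CD45.2 and 7 lineage markers, was sorted from transplanted (BMT) mice (7 libraries) and from control mice (8 libraries). At 52 weeks, host cells positive for CD45.1 and CD11b were sorted from BMT mice (3 libraries) and control mice (3 libraries), all male, while the other groups held both sexes. The mutation itself cannot be read from gene counts, and donor cells also differ from host and control cells in their CD45 allele and in having been transplanted, so these cannot be told apart.

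Library totals, rounded, were 16300000 to 19700000 counts in donor cells, 16300000 to 19000000 in host cells and 15700000 to 18600000 in control CD45.1+ cells. They were 41200000 to 64000000 in BMT stroma and 50700000 to 143200000 in control stroma, and 32500000 to 44900000 in BMT CD11b cells and 35500000 to 43000000 in control CD11b cells. One donor library, from mouse N204, is titled as donor cells but carries a characteristic naming recipient cells. It was kept under its title. Its 10 B-cell genes summed to 19.9 TPM, against 112.5 TPM in the host library of that mouse. With or without the donor library of N204, 5 Notch genes other than Dtx1 passed the test against control cells and 4 against host cells. The stroma fraction carried its markers: the 9 LepR stroma genes summed to 557 to 2827 TPM in BMT stroma and 816 to 4742 TPM in control stroma, against 12.2 to 18.8 TPM in control CD45.1+ cells. Its 10 erythroid genes were also high although Ter119 was among the sorted-out lineage markers, and CD11b cells carried neutrophil markers at 232500 to 362500 summed TPM.

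Notch receptors are cell-surface proteins that are cut when a Delta-like or Jagged ligand on a neighbouring cell binds them. The freed intracellular part joins the DNA-binding protein RBPJ and a Mastermind co-activator in the nucleus and switches on targets such as Hes1, Hey1, Nrarp and Dtx1. In blood formation the pathway is known for committing progenitors to the T lineage through Notch1 and for forming marginal-zone B cells through Notch2.

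The upstream sequences of Dtx1 and Nrarp are shown because these targets were both low in donor cells but moved apart in host cells. Each line is the 250 bases before the gene's start, from RefSeq on GRCm38.p6, 5′ to 3′ on the gene's strand. Capitals mark CACGTG, the E-box hexamer that reads the same on both strands. Dtx1 lies on the minus strand (chr5:120711670-120711919) and Nrarp on the plus strand (chr2:25180508-25180757).
Dtx1: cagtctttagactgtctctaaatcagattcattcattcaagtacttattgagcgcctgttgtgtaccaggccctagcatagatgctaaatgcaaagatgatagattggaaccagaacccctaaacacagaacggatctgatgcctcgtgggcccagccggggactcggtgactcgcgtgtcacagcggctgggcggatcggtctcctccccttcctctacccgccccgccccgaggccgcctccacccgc
Nrarp: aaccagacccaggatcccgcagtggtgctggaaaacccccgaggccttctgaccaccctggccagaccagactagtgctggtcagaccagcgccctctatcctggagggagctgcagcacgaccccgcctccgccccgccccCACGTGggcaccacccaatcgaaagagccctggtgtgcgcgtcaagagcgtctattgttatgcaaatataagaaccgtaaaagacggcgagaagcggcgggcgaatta
The RefSeq table gave this window for 8 of the 10 genes, and Hes1 and Hey1 are named only. The letters TGGGAA, the core of the RBPJ site, were searched on both strands and were in none of these 8 windows, against 21.6% of 32851 windows of the same length. CACGTG was in 1 of the 8, that of Nrarp, 108 bases before the start, against 6.0% of the 32851. These are letter matches in one window and say nothing of whether a factor binds.

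Donor cells carried much less RNA of the Notch targets than control CD45.1+ cells, while Notch1 was the one receptor that passed. Hes1, Hey1, Nrarp and Dll4 each fell by between 1.81 and 1.98 on the log2 scale, and Notch1 fell by 0.44. Dtx1 was near zero in donor cells. The fold changes, standard errors and adjusted p-values below are from edgeR's quasi-likelihood test on counts with sex as a covariate and Benjamini-Hochberg adjustment over all genes. With Dtx1 left out, 5 of the other 9 genes passed, all lower, where 45.7% of 13906 genes were called in this comparison, 22.7% higher and 23% lower. The median log2 fold change was -0.74 over those 9 genes and 0 over all genes tested.

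**Figure D1:**
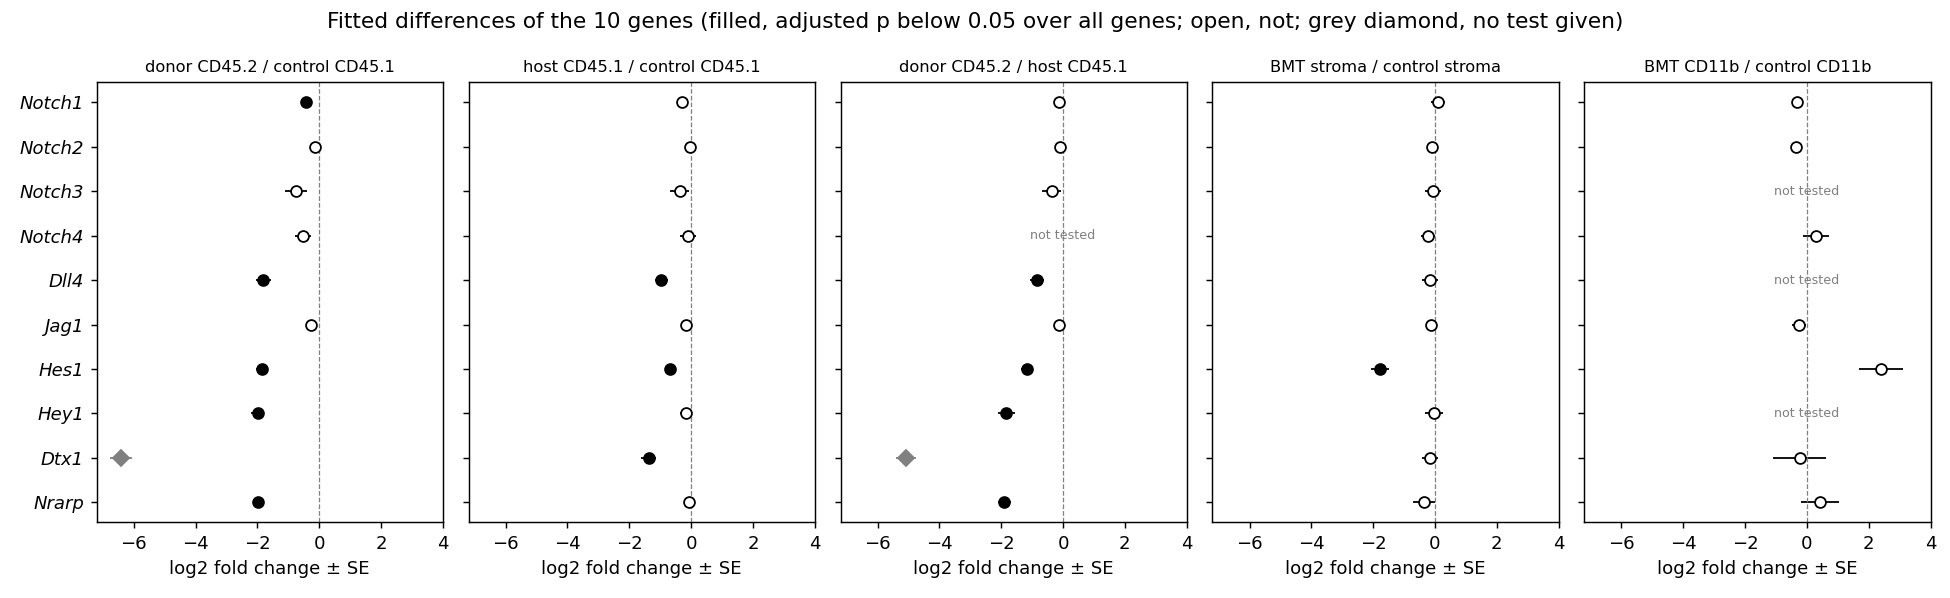
Fitted log2 fold change (horizontal axis) with its standard error for the 10 genes (vertical axis) in 5 comparisons, written as first group over second. Filled points had an adjusted p below 0.05 over all genes, open points did not, and grey diamonds mark Dtx1 where no test is given. The targets lie left of zero in donor cells, and Hes1 is the single filled point in BMT stroma.

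Hes1, a transcriptional repressor and the most widely used Notch target, had a lowest, median and highest level of 3.65, 5.84 and 10.5 TPM in donor cells, against 10.4, 22.7 and 29.2 TPM in control cells. The highest donor library just reached the lowest control library. The log2 fold change was -1.85 ± 0.18 (SE, n = 7 and 8; edgeR adjusted p = 2.39e-07).

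Hey1, a related repressor, had 0.14, 0.24 and 0.56 TPM in donor cells, against 0.80, 1.09 and 1.49 TPM in control cells, and the groups did not overlap. These levels rest on few reads, 5 to 14 counts per donor library and 23 to 38 per control library. Hey1 fell by 1.98 ± 0.21 on the log2 scale (SE; edgeR adjusted p = 6.85e-07).

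Nrarp, an ankyrin-repeat protein that Notch induces and that restrains Notch signalling, had 1.47, 2.28 and 3.32 TPM in donor cells, against 7.21, 8.58 and 11.6 TPM in control cells. Every donor library lay below every control library. Nrarp fell by 1.98 ± 0.17 on the log2 scale (SE; edgeR adjusted p = 5.27e-08).

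Dtx1, an E3 ubiquitin ligase of the Deltex family that is induced by Notch in B cells, had 0.00, 0.09 and 0.55 TPM in donor cells, against 5.05, 10.3 and 14.8 TPM in control cells. Donor libraries held 1 to 11 Dtx1 counts and control libraries 167 to 537. The fitted log2 fold change was -6.41 ± 0.36 (SE), described without a test.

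Dll4, the Delta-like ligand that drives T-lineage commitment in the mouse thymus, had 0.29, 0.31 and 0.75 TPM in donor cells, against 0.78, 1.62 and 2.40 TPM in control cells. The groups did not overlap, but the gap between them was small. The log2 fold change was -1.81 ± 0.24 (SE; edgeR adjusted p = 9.98e-06). Jag1, the Jagged ligand of the list, had 2.90, 3.63 and 5.16 TPM in donor cells and 3.12, 4.65 and 5.33 TPM in control cells, overlapping almost fully. Its log2 fold change of -0.27 ± 0.14 did not pass (edgeR adjusted p = 0.121) but passed without the donor library of N203 (-0.40, edgeR adjusted p = 0.00781).

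Notch1, the receptor needed for T-cell formation, had 29.3, 35.9 and 48.5 TPM in donor cells, against 32.9, 57.1 and 66.99 TPM in control cells. The groups overlapped at the 2 lowest control libraries, those of N051 and N277. Notch1 fell by 0.44 ± 0.13 on the log2 scale (SE; edgeR adjusted p = 0.0108). Notch2, the receptor of marginal-zone B cells, had 38.4, 41.5 and 50.0 TPM in donor cells and 23.9, 49.2 and 56.7 TPM in control cells. Its log2 fold change of -0.14 ± 0.12 did not pass (edgeR adjusted p = 0.329) but did without N051, whose Notch2 was the lowest (-0.24, edgeR adjusted p = 0.0181).

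Notch3 and Notch4, receptors best known from smooth muscle and endothelium, were scarce in these sorts. Notch3 had 4 to 18 counts per donor library and 4 to 35 per control library, and its log2 fold change of -0.74 ± 0.35 did not pass (edgeR adjusted p = 0.093). It passed without the donor library of N014 (-1.03, edgeR adjusted p = 0.0167) or without N051 (-0.89, edgeR adjusted p = 0.0356), and on TPM its difference was near zero. Notch4 had 6 to 12 counts in donor and 8 to 15 in control libraries, with a log2 fold change of -0.52 ± 0.25 (edgeR adjusted p = 0.0959).

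**Figure D2:**
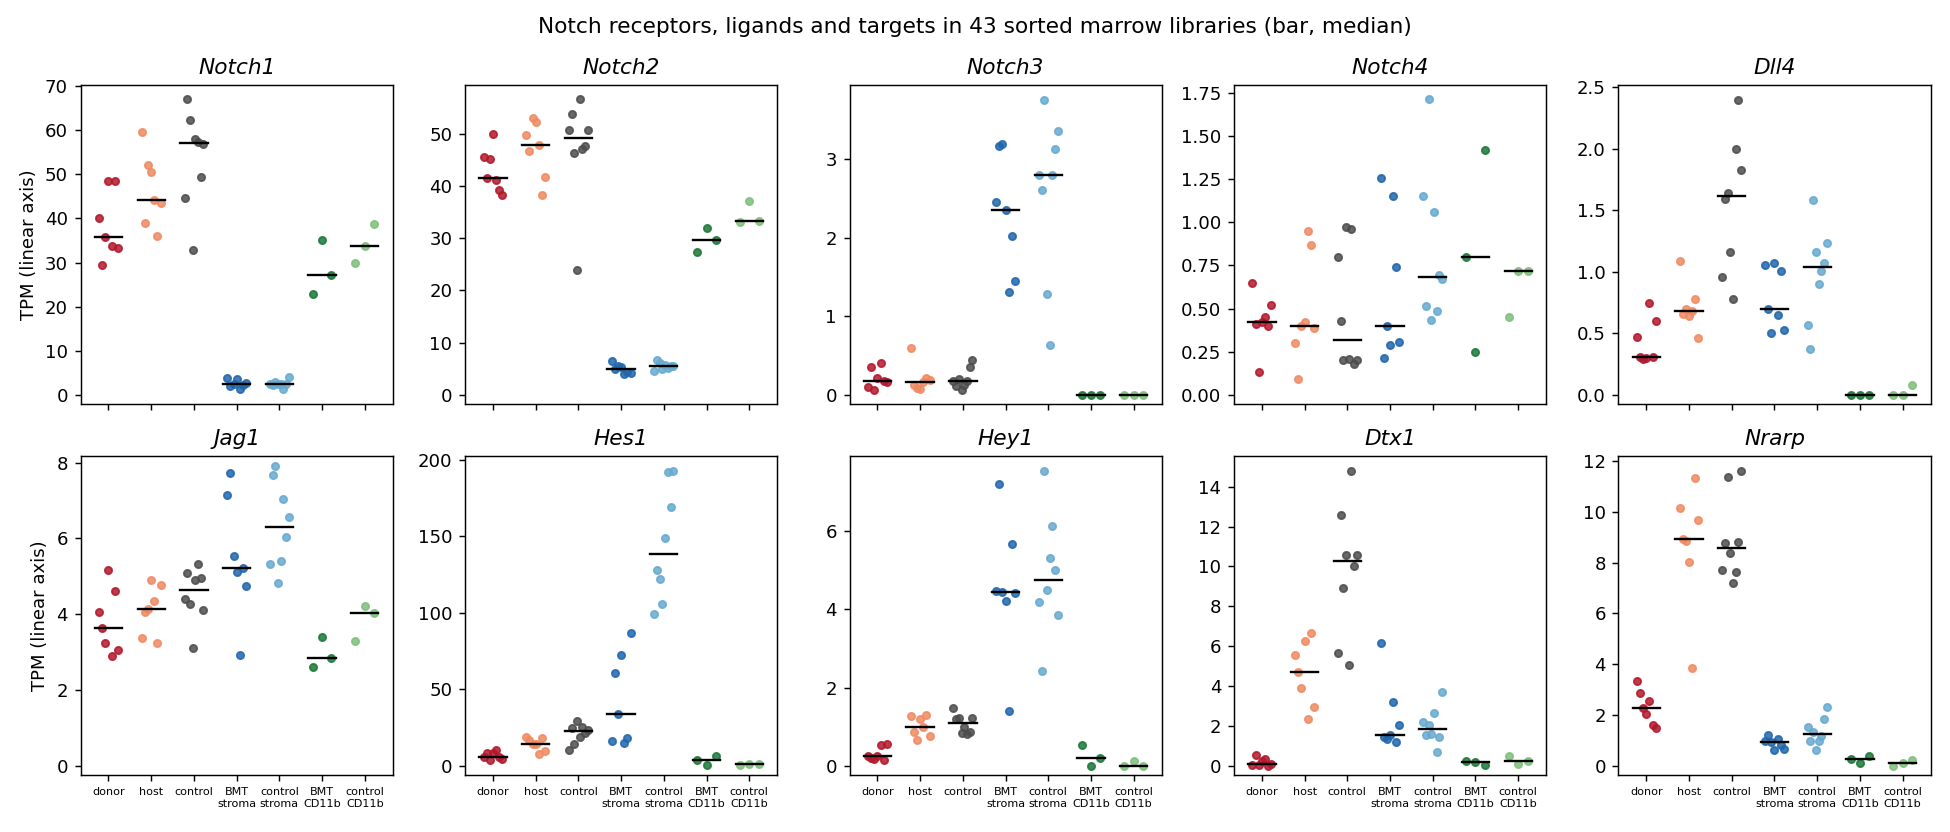
TPM (vertical axis, linear from zero, scaled for each gene) of the 10 genes in each of the 43 libraries, by group; donor, host and control are the CD45-sorted cells, and bars are medians. By median, Dtx1 and Nrarp are highest in the CD45-sorted host and control libraries, though the Dtx1 ranges of host cells and stroma overlap. Hes1 is highest in control stroma, and Notch1 and Notch2 are high in every CD45-sorted and CD11b group and low in stroma.

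The rest of the pathway was followed through 6 lists. Their counts stand beside 22.7% of all genes called higher and 23% called lower in donor against control cells. Of 7 other targets listed, 4 had enough counts to be tested and all 4 fell: Cr2, the complement receptor CD21 of B cells (log2 fold change -5.32 ± 0.46, edgeR adjusted p = 6.85e-08), Hes5 (-3.45 ± 0.34, edgeR adjusted p = 3.33e-07), Heyl (-3.68 ± 0.47, edgeR adjusted p = 6.97e-06) and Hes6, which fell by 0.33. The other ligands tested both fell, Dll1 by 1.71 and Jag2 by 0.77 on the log2 scale. Among 10 genes of the proteases that cut the receptors, 5 rose slightly and none fell, with Aph1a, Ncstn and Adam10 the smallest p-values at log2 fold changes of 0.35, 0.28 and 0.18. Of 9 nuclear complex genes, Maml2, a Mastermind co-activator, fell (-2.36 ± 0.17, edgeR adjusted p = 5.82e-09) and Snw1 rose by 0.13, while Rbpj was at 0.06 ± 0.06 (edgeR adjusted p = 0.402). Among 5 glycosylation genes, the O-glucosyltransferase gene Poglut1 rose by 0.42 and the Fringe gene Mfng fell by 0.42. Among 11 genes of endocytosis and ubiquitination, Dtx4 rose by 0.36, and Neurl3, Fbxw7 and Dtx2 fell by 0.75, 0.23 and 0.22.

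Markers of several cell types moved in the same libraries, where 22.7% of all genes were called higher and 23% lower. All 10 B-cell genes fell in donor cells, by 3.44 to 6.25 on the log2 scale, and their summed level was 11.8 to 30.5 TPM in donor cells and 235 to 649 TPM in control cells. Pax5 had a median of 0.79 TPM in donor cells and 24.3 TPM in control cells. Of the 10 T and NK genes, 9 fell, with Cd3e at a median of 0.31 TPM in donor cells and 10.5 TPM in control cells, while Nkg7 rose by 0.52. The summed level of the T and NK list overlapped, at 220.4 to 324.2 TPM in donor cells and 224.7 to 323.5 TPM in control cells. As Nkg7 alone rose, this sum did not follow the 9 genes that fell, whose list had a median log2 fold change of -3.64. Of 6 dendritic-cell genes tested, 4 fell, with Siglech at -2.32 ± 0.17, and 5 of 6 plasma-cell genes fell. Of 9 monocyte and macrophage genes tested 7 rose, with a median log2 fold change of 0.68 over the 9, and the summed level of that list was 2348 to 3146 TPM in donor cells and 1993 to 2383 TPM in control cells. Of 7 stem and progenitor genes 3 rose, and of 10 erythroid genes 5 rose and 2 fell. In bulk samples, fewer cells of a type and less RNA per cell cannot be told apart, and the part of these cell types in the Notch results was not tested.

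Host cells, which are wild type and lived beside the mutant clone, showed a narrower pattern against the same control cells. Dtx1, Dll4 and Hes1 fell, while Nrarp and Hey1 did not pass the test, at log2 fold changes of -0.07 and -0.16. Of the 10 genes 3 passed, all lower, where 16.4% of 14073 genes were called with 8.61% called higher and 7.82% called lower. The median log2 fold change was -0.23 over the 10 genes and 0.01 over all genes. Because host and donor cells were compared with the same 8 control libraries, no overlap between these comparisons is given as a result.

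Dtx1 had a lowest, median and highest level of 2.35, 4.69 and 6.64 TPM in host cells, against 5.05, 10.3 and 14.8 TPM in control cells. The 3 highest host libraries lay above the lowest control library. The log2 fold change was -1.37 ± 0.24 (SE, n = 7 and 8; edgeR adjusted p = 0.00151).

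Dll4 had 0.46, 0.68 and 1.09 TPM in host cells, against 0.78, 1.62 and 2.40 TPM in control cells, and the groups overlapped at the control libraries of N093 and N277. Dll4 fell by 0.96 ± 0.21 on the log2 scale (SE; edgeR adjusted p = 0.00598). Hes1 had 7.66, 14.3 and 18.8 TPM in host cells, against 10.4, 22.7 and 29.2 TPM in control cells. These groups also overlapped, and the log2 fold change was -0.67 ± 0.15 (SE; edgeR adjusted p = 0.00563). On log2(TPM + 1) the Hes1 difference was -0.57 and did not pass (limma adjusted p = 0.0802).

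Nrarp had 3.84, 8.92 and 11.3 TPM in host cells and 7.21, 8.58 and 11.6 TPM in control cells, with only the host library of N269 below the control range. Its log2 fold change was -0.07 ± 0.16 (edgeR adjusted p = 0.784). Hey1 had 0.66, 1.00 and 1.3 TPM in host cells and 0.80, 1.09 and 1.49 TPM in control cells, and its log2 fold change was -0.16 ± 0.19 (edgeR adjusted p = 0.616). Neither p shows that the levels were the same.

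Notch1 had 36.1, 44.1 and 59.5 TPM in host cells, against 32.9, 57.1 and 66.99 TPM in control cells. The difference of -0.29 ± 0.11 did not pass (edgeR adjusted p = 0.0792) but passed without the host library of N203 (-0.35, edgeR adjusted p = 0.039) or without control N051 (-0.36, edgeR adjusted p = 0.0217). The log2 fold changes of Notch2, Notch3, Notch4 and Jag1 were -0.03, -0.37, -0.10 and -0.15, and none passed. Notch2, Notch3 and Notch4 turned sign near zero under other settings.

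The other pathway genes that passed in host cells were few, where 8.61% of all genes were called higher and 7.82% lower. Cr2 and Hes5 were the other targets that fell, by 1.37 and 0.94 on the log2 scale. Of 10 protease genes 3 rose slightly, Adam17, Aph1a and Ncstn, by 0.24, 0.29 and 0.24. Maml2 fell by 0.52, Neurl3, a Neuralized-family ubiquitin ligase gene, fell by 0.33, and Poglut1, Dtx4 and the Fringe gene Lfng rose by 0.31, 0.25 and 0.21. Neither of the other ligands tested passed, with Dll1 at -0.14 and Jag2 at 0.01.

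Marker lists moved in both directions in the same libraries, where 8.61% of all genes were called higher and 7.82% lower. All 10 B-cell genes fell in host cells by 1.17 to 1.81, with a median log2 fold change of -1.42 beside -1.37 for Dtx1, and their summed level was 79.4 to 326 TPM in host cells and 235 to 649 TPM in control cells. None of the 10 T and NK genes passed as lower and Nkg7 rose by 0.31, with a median log2 fold change of -0.39 over the list. Cd3e had a median of 11.4 TPM in host cells and 10.5 TPM in control cells. The T and NK list summed to 240.0 to 387.2 TPM in host cells and 224.7 to 323.5 TPM in control cells, so this sum did not follow the negative median of the list. Of 6 dendritic-cell genes tested 2 fell, Siglech and Ccr9, by 0.89 and 0.90, and the median of the 6 was -0.10. Of 6 plasma-cell genes 3 fell. Of 10 monocyte and macrophage genes 8 rose, with a median of 1.03 and C1qa at 4.08 ± 0.25, and their summed level was 2460 to 3101 TPM in host cells and 1993 to 2383 TPM in control cells. Of 7 stem and progenitor genes 3 rose. The part of these cell types in the Notch results was not tested.

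With the day of euthanasia as a replicate block in place of sex, 850 genes were called in host cells, and 3 of the 10 Notch genes were called as before. In male mice alone 479 genes passed and Hes1 was the single Notch gene among them (-0.74, edgeR adjusted p = 0.018). In female mice alone 121 genes passed and Dtx1 was the single Notch gene (-1.69, edgeR adjusted p = 0.0441). No gene passed the edgeR test of the difference between the sexes (0 of 14073), in which Dtx1 had an unadjusted p of 0.242 and Hes1 of 0.632.

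Donor cells were also set against host cells of the same marrow, which differ in genotype and origin but shared a mouse and a sort. The targets Hes1, Hey1 and Nrarp were lower in the donor cells of every mouse. No receptor passed with sex as covariate, a fit that took the libraries as independent. With the animal as a replicate block, Notch1 was the one receptor that passed. With sex as covariate and Dtx1 left out, 4 of 8 genes tested passed, all lower. In that fit 14.1% of 13662 genes were called, 4.17% higher and 9.94% lower. Notch4 did not pass the filter on low counts.

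Nrarp was lower in donor than in host cells in 7 of 7 mice, with a log2 fold change of -1.90 ± 0.21 (SE, n = 7 each; edgeR adjusted p = 5.33e-06). The widest ratio was in N279, with 1.62 TPM in donor and 10.1 TPM in host cells, and the narrowest in N269, with 1.47 TPM in donor and 3.84 TPM in host cells. Hey1 was lower in 7 of 7 mice, at -1.83 ± 0.27 (edgeR adjusted p = 0.000133), and the groups did not overlap.

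Hes1 was lower in 7 of 7 mice, at -1.17 ± 0.18 (edgeR adjusted p = 0.000233), for example 3.65 TPM in donor and 13.99 TPM in host cells of N032. Dll4 was lower in 6 of 7 mice, at -0.85 ± 0.23 (edgeR adjusted p = 0.0187). That Dll4 difference lost significance without the host library of N279 (-0.72, edgeR adjusted p = 0.0546) and on TPM (limma adjusted p = 0.0974 with a pseudocount of 1).

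Dtx1 was lower in 7 of 7 mice, with a fitted log2 fold change of -5.08 ± 0.32, described without a test. None of the 3 receptors tested passed with sex as covariate. Notch1 was at -0.14 ± 0.12 (edgeR adjusted p = 0.515), Notch2 at -0.11 ± 0.09 (edgeR adjusted p = 0.487) and the scarce Notch3 at -0.37 ± 0.32 (edgeR adjusted p = 0.514). With the animal as a replicate block 4605 genes were called, and Notch1, lower in 7 of 7 mice, then passed (-0.15, edgeR adjusted p = 0.0152). Jag1 was at -0.12 ± 0.16 (edgeR adjusted p = 0.702).

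**Figure D3:**
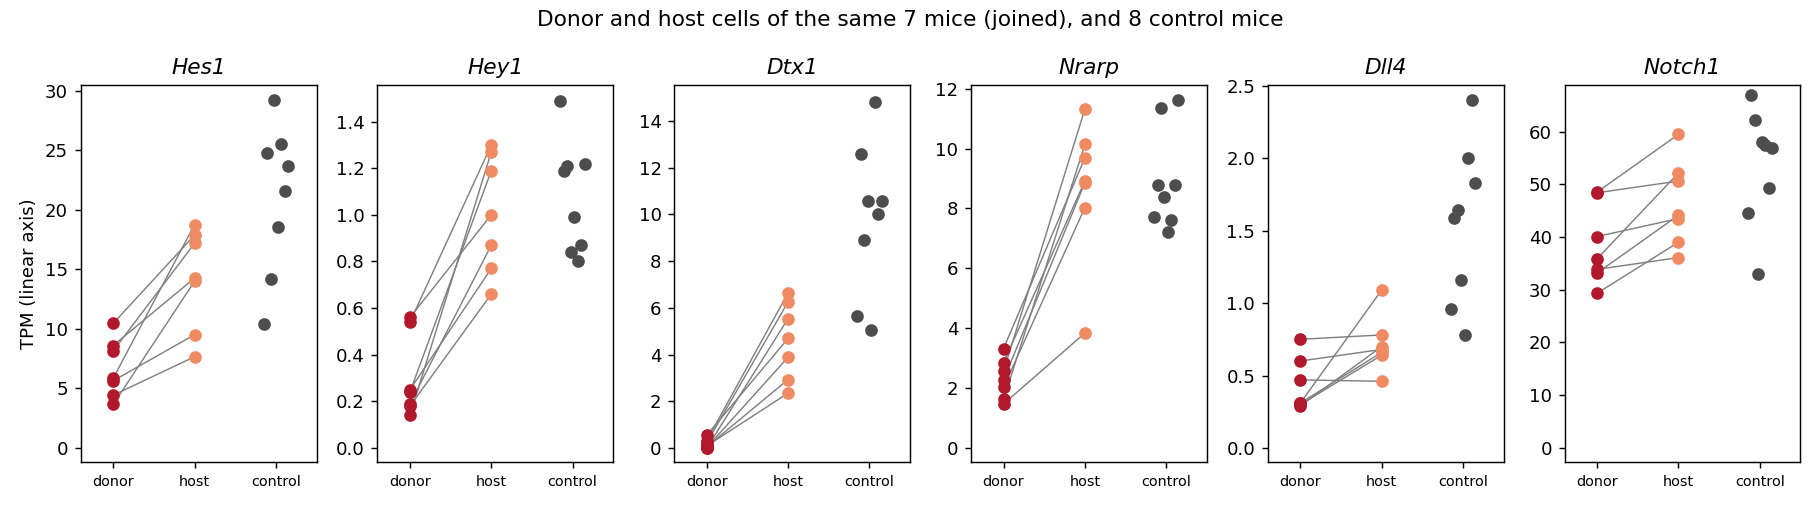
TPM (vertical axes, linear from zero) of 6 Notch genes in donor and host cells joined by mouse (7 mice) and in the 8 control libraries at the right. Every line of Hes1, Hey1, Dtx1, Nrarp and Notch1 runs lower on the donor side, and 1 line of Dll4 does not.

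Among other pathway genes, Cr2 fell by 4.12, Maml2 by 1.84 and Jag2 by 0.79 in donor relative to host cells. Over all genes 4.17% were called higher and 9.94% lower in this comparison. The Fringe genes Lfng and Mfng fell by 0.38 and 0.49, Neurl3 by 0.42 and Maml3 by 0.36, and 0 of 10 protease genes passed. Cell-type markers moved in these libraries too: 10 of 10 B-cell genes, 9 of 10 T and NK genes, 5 of 6 dendritic-cell genes, 5 of 6 plasma-cell genes and 5 of 10 monocyte and macrophage genes fell, while 4 of 10 erythroid genes rose. Their part in the result was not tested.

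In the stroma-enriched fraction, Hes1 was the only one of the 10 Notch genes that passed the test, and it fell in the fraction where it was most abundant. Its drop came without a change past the test in any receptor, ligand or other target. This was 1 of 10 genes tested, where 1.49% of 26191 genes were called and 1.03% were called lower. The median log2 fold change was -0.14 over the 10 genes and 0.04 over all genes.

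Hes1 had 15.1, 16.3, 18.4, 33.7, 60.8, 72.2 and 87.1 TPM in the BMT stroma of N032, N005, N203, N014, N269, N204 and N279. In control stroma its lowest, median and highest levels were 99.3, 139 and 193 TPM. Every BMT library lay below every control library in TPM, although the scaled CPM values of the groups overlapped. The log2 fold change was -1.78 ± 0.30 (SE, n = 7 and 8; edgeR adjusted p = 0.00392), and it stayed between -1.92 and -1.63 when each library was left out in turn. In the 5 pairs of mice matched by day of euthanasia, Hes1 was lower in the BMT mouse in 5 of 5.

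The BMT stroma libraries fell into 2 levels by sex, but the mice also differed in their labelled final blood chimerism. It was lowest in the female mice N269 and N279, while the female mouse N204 was above all males but N014. The part of chimerism in the Hes1 levels was not tested. The 4 male libraries had 15.1 to 33.7 TPM and the 3 female libraries 60.8 to 87.1 TPM, while in control stroma 4 male libraries had 99.3 to 169 TPM and 4 female libraries 106 to 193 TPM. In male mice alone the log2 fold change was -2.56 ± 0.35 (edgeR adjusted p = 0.0228), and in female mice alone it was -0.96 ± 0.24 (edgeR adjusted p = 0.463). The female change minus the male change was 1.57 ± 0.44 with an unadjusted p of 0.00243, but over all genes the edgeR adjusted p was 0.98. No gene passed that test of the sex difference (0 of 26191), so a difference between the sexes is not shown at this sample size, and this split was chosen after the values were seen.

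**Figure D4:**
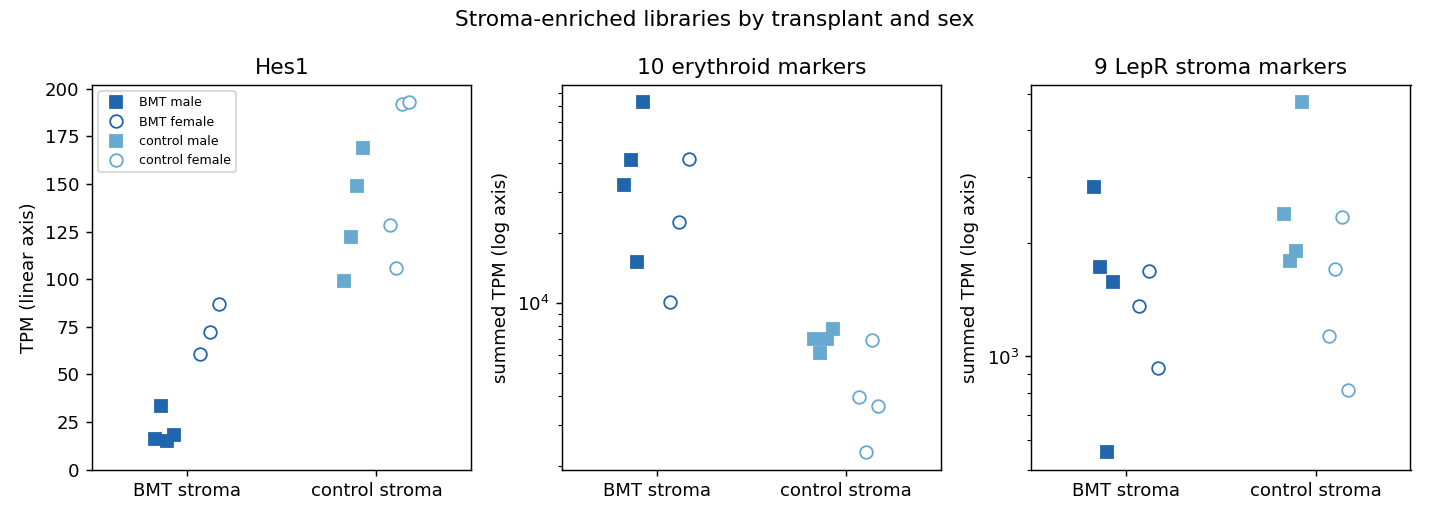
Hes1 (left, TPM, linear axis), the summed TPM of 10 erythroid markers (middle, log axis) and of 9 LepR stroma markers (right, log axis) in 7 BMT and 8 control stroma libraries; squares are male and circles female mice. Hes1 lies lower and erythroid markers higher in all BMT libraries than in any control library, and LepR stroma markers overlap.

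Marker lists of blood cells moved in the same stroma libraries. Of the 10 erythroid genes 5 rose, among them Hbb-bs by 3.33 and Hba-a1 by 2.7 on the log2 scale, and none fell. Their summed level was 10050 to 72550 TPM in BMT stroma and 2289 to 7728 TPM in control stroma. In TPM, every BMT library had a lower Hes1 level and a higher erythroid sum than any control library. How the 2 measures relate within BMT stroma was not tested. The macrophage genes C1qa, C1qb and C1qc rose by 3.07, 3.36 and 2.56, and none of the 9 LepR stroma, 7 osteoblast, 11 endothelial or 6 smooth muscle and pericyte genes passed. The library of N032 was low in stroma markers, with 557 summed TPM of LepR stroma genes, and without it Hes1 was at -1.66 (edgeR adjusted p = 0.00531). The part of these cells in the Hes1 result was not tested.

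Hey1, a repressor of the same class as Hes1, had 1.40, 4.45 and 7.20 TPM in BMT stroma and 2.44, 4.74 and 7.55 TPM in control stroma. The groups overlapped almost fully, and its log2 fold change was -0.03 ± 0.29 (edgeR adjusted p = 0.998). Jag1, the more abundant ligand here, had 2.92, 5.21 and 7.73 TPM in BMT stroma and 4.83, 6.31 and 7.92 TPM in control stroma, at -0.12 ± 0.17 (edgeR adjusted p = 0.996). Dll4 was at -0.16 ± 0.27, Nrarp at -0.35 ± 0.35 on 11 to 28 counts per BMT library and 13 to 82 per control library, and Dtx1 at -0.16 ± 0.25.

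The stroma receptors ranged from 0.09 ± 0.23 for Notch1 to -0.23 ± 0.23 for Notch4 on the log2 scale, with Notch2 at -0.09 and Notch3 at -0.05, and none passed. Notch3, the receptor of vascular smooth muscle and pericytes, had 1.32, 2.36 and 3.20 TPM in BMT stroma and 0.64, 2.80 and 3.76 TPM in control stroma. No gene of the other 6 pathway lists passed in stroma, and Rbpj was at 0.07 ± 0.17.

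Whether the transplant acted differently on stroma and on CD45.1+ host cells was tested in 1 fit over 4 groups that took the 30 libraries as independent, in which 2.69% of 22991 genes were called, 1.08% higher and 1.61% lower. Dtx1 was the one Notch gene that passed: its change in stroma exceeded that in CD45.1+ cells by 1.25 ± 0.35 (edgeR adjusted p = 0.0436). Its log2 fold change was -1.37 in host cells and -0.16 in BMT stroma, each from its own fit. It did not pass without the filter on low counts (1.12, edgeR adjusted p = 0.129), nor with the animal as a replicate block (1.21, edgeR adjusted p = 0.0800), a fit added because each of the 15 mice gave both a stroma and a CD45.1+ library. For Hes1 the stroma change minus the CD45.1+ change was -0.99 ± 0.42 (edgeR adjusted p = 0.285), so the larger Hes1 drop in stroma was not shown to differ from that in host cells. Cr2 was the one gene of the other pathway lists that passed, at 1.68 ± 0.44 (edgeR adjusted p = 0.029).

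At 52 weeks the CD11b+ host cells, mostly neutrophils and monocytes, gave no called Notch gene. No gene at all was called by edgeR, 0 of 15257 (0%), with 2506 genes at an unadjusted p below 0.05. DESeq2 called 291, edgeR without the filter on low counts called 59, limma on TPM called 2 or 3, and none of these held a Notch gene. Of the 10 Notch genes 7 were tested, and Notch3, Hey1 and Dll4 had too few counts.

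Hes1 had 0.73, 3.57 and 6.21 TPM in BMT CD11b cells, against 0.49, 0.95 and 1.10 TPM in control CD11b cells. In 2 BMT libraries, those of N187 and N129, it was above all control libraries, and in N116 it was within their range. The log2 fold change was 2.40 ± 0.72 and did not pass (SE, n = 3 each; edgeR adjusted p = 0.27). Marker sums differed between the same libraries: T and NK genes summed to 166 to 286 TPM in BMT CD11b cells and 126 to 138 TPM in control CD11b cells, and monocyte and macrophage genes to 2399 to 3165 TPM in BMT and 2018 to 2069 TPM in control cells. Neutrophil genes summed to 232500 to 335100 TPM in BMT and 350400 to 362500 TPM in control cells. N129 held the highest of the T and NK and of the monocyte sums and the lowest neutrophil sum, and without it Hes1 was at 2.29 (edgeR adjusted p = 0.35) and Notch2 at -0.26 (edgeR adjusted p = 0.388). The part of these cells in the Hes1 and Notch2 values was not tested.

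Notch2 had 27.4, 29.6 and 32.1 TPM in BMT CD11b cells, against 33.1, 33.3 and 37.1 TPM in control CD11b cells, and the groups did not overlap. Its fitted difference was -0.35 ± 0.12 on the log2 scale and did not pass (edgeR adjusted p = 0.272). Notch1 had 22.9, 27.1 and 35.1 TPM in BMT CD11b cells and 29.9, 33.8 and 38.8 TPM in control CD11b cells, at -0.31 ± 0.16 (edgeR adjusted p = 0.346). Jag1 was at -0.25 ± 0.23, and Dtx1, Nrarp and Notch4 stayed below 2 TPM in all 6 libraries.

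The sorted fractions differed in how much of each receptor they carried. Compared per length in TPM, the 4 receptors summed to a median of 81.3 TPM in donor cells, 93.2 in host cells, 107 in control CD45.1+ cells, 10.2 in BMT stroma, 11.3 in control stroma, 58.1 in BMT CD11b cells and 71.7 in control CD11b cells. In CD45-sorted and CD11b cells Notch1 and Notch2 made up nearly all of this sum, with medians of 46.0% and 53.1% in donor cells and 53.5% and 45.7% in control CD45.1+ cells. In stroma Notch3 took a larger part, with a median of 20.4% in BMT stroma and 25.0% in control stroma, beside 47.5% and 49.9% for Notch2.

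Control stroma and control CD45.1+ cells of the same 8 mice differed in all 10 genes, 5 higher and 5 lower, where 89.6% of 19824 genes were called, 53.3% higher and 36.3% lower, so this count says little about Notch. Sort and library kit changed together and cannot be told apart. In control stroma Hes1 was higher by 2.63 ± 0.19, Notch3 by 3.77 ± 0.33, Hey1 by 1.88 ± 0.21, Notch4 by 1.11 ± 0.21 and Jag1 by 0.44 ± 0.12 on the log2 scale. Nrarp fell by 5.42 ± 0.26, Notch1 by 5.17 ± 0.17, Dtx1 by 3.33 ± 0.24, Notch2 by 3.18 ± 0.13 and Dll4 by 0.87 ± 0.27. All these edgeR adjusted p-values were at most 0.00572, and the median log2 difference of all genes was 0.53, or 0.59 with another scaling. Relative to that median Jag1 was not raised. The size of the Nrarp difference depended on the measure. In TPM it was smaller than in counts, with medians of 1.25 in control stroma and 8.58 in control CD45.1+ cells.

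The order of the groups differed between targets. By median TPM, Dtx1 ran from control CD45.1+ (10.3) and host (4.69) cells through control stroma (1.83) and BMT stroma (1.55) to control CD11b (0.24), BMT CD11b (0.19) and donor cells (0.09). Its first 4 groups each overlapped the next in range, BMT stroma and control CD11b did not, and the last 3 overlapped. Nrarp was highest in host (8.92) and control CD45.1+ (8.58) cells, which overlapped, and every library of both lay above every library of the other 5 groups. Hes1 was highest in control stroma, which overlapped no other group.

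The genes whose levels were most like each target and Dll4 were found by Pearson correlation of log2 CPM over the 22 CD45-sorted libraries, among 10075 genes. Those of the other members are not listed. They are a description, since the libraries share the 3 groups and their depth. Dtx1 was most like Blnk, Irf4 and Scd1 (r of 0.99 each), and Nrarp was most like Sidt1, Tcf7 and Ptpn22 (0.97 each). Hey1 was most like Lck, Ctsw and Sla2 (0.94 each), Hes1 like Id3 (0.98), Sdc4 and Cobll1 (0.97 each), and Dll4 like Siglech (0.93), Fchsd2 (0.92) and St6gal1 (0.91). Blnk encodes an adaptor of the B-cell receptor, Tcf7 and Lck are T-lineage genes, and Siglech marks plasmacytoid dendritic cells. The other genes named are given without a cell type. Over the 15 stroma libraries, among 12147 genes, Hes1 was most like Tram1 (0.99), Txndc11 and Nrtn (0.98 each). Dll4 was most like the endothelial cadherin gene Cdh5 (0.82), Slc36a2 (0.82) and Ercc4 (0.8).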

How the data were processed

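RNA-seq of sorted mouse bone marrow was analysed from the authors' deposited tables of all genes. The authors deposited raw counts per gene and TPM values. Per the submitters' processing notes, which give no role or order, the tools were STAR 2.7.3a and featureCounts of Subread 1.6.2, with RSEM 1.3.3 named for the CD11b libraries, on GRCm39. The annotation release and the strand setting used for counting are not given in the sources used here. Per the labels, CD45-sorted libraries were directional poly(A) libraries, and stroma libraries were made with a low-input kit and sequenced in 2 runs; how the runs were joined is not given in the sources used here.

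Counts were tested with edgeR 4.0.16 (R 4.3.3): filterByExpr, TMM scaling, a quasi-likelihood test with sex as a covariate (none for CD11b cells, all male), and Benjamini-Hochberg adjustment over all genes tested, with a threshold of 0.05. The scripts were tested on simulated counts. Symbols were matched for 51948 of 56941 gene identifiers. No 2 libraries held identical values. Where nothing says otherwise each library is 1 mouse, and donor and host libraries, and control stroma and control CD45.1+ libraries, come from the same mice by their animal numbers, as do BMT stroma and host libraries. Deviations of same-mouse libraries correlated at 0.174 to 0.6 for donor and host cells and at 0.048 to 0.143 for control stroma and CD45.1+ cells, and at -0.024 to 0.114 for BMT stroma and host cells. Alternatives were RLE scaling, no filter on low counts, DESeq2 1.42.0, limma 3.58.1 on log2(TPM + 1) and log2(TPM + 0.1), an animal or day block, each library left out, and, chosen after seeing the data, each sex alone and an animal block in the interaction of stroma and CD45.1+ cells. A TPM fold change on the log2(TPM + pseudocount) scale understates the change of low genes.

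The genes, the other pathway lists and the marker lists were chosen with earlier results of these data known. Named genes were the 10 members, up to 3 genes per pathway list with the smallest p, and leading markers beside a result. The 3 genes most like each target and Dll4 in CD45-sorted libraries, and most like Hes1 and Dll4 in stroma, were also named. C1q, Cd3e, Pax5, Siglech, Ccr9 and the 4th gene of a list were named after their values were seen. Promoter windows came from RefSeq on GRCm38.p6, a build other than that of the files, and gene coordinates are not used otherwise.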

Additional observations from a re-analysis of the deposited data

Results flagged for a closer look

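Among 50 groups of 4 to 10 libraries examined for a single library far from the rest, 3 stood out, and chance gives about 1 in 20. Dtx1 was 6.15 TPM in the BMT stroma of N005, above the other 6 libraries of that group, of which the highest was N032 with 3.20 TPM. Notch2 was 23.93 TPM in the control CD45.1+ library of N051, the lowest of 8. Notch3 was 0.6 TPM in the host library of N279, the highest of 7, at a level that rests on few counts.

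The change of Dtx1 after transplantation differed between fractions: the stroma change minus the CD45.1+ change was 1.25 on the log2 scale (edgeR adjusted p = 0.0436 for the interaction). It did not pass without the filter on low counts (edgeR adjusted p = 0.129) or with the mouse as a block (edgeR adjusted p = 0.0800).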

How the results depend on the processing

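Over the 10 genes and the 6 comparisons between groups, 317 values under other scaling, filter, test, unit or block kept their direction and side of the threshold, 13 reversed, 4 lost and 1 gained significance. With 1 library left out, 753 kept both, 18 reversed, 6 gained and 1 lost significance. In the fits of each sex alone, 31 kept both, 4 reversed and 5 lost significance: Dtx1 and Dll4 in host cells of males, Hes1 and Dll4 in host cells of females, and Hes1 in stroma of females. In the stroma and CD45.1+ interaction, 37 kept both, 1 reversed, and Dtx1 lost significance in 2 settings. None of the reversals concerned a gene that passed; the causes were not tested. On TPM with pseudocounts of 1 and 0.1, host against control, Notch2 was 0.03 and 0.04, Notch3 0.01 and 0.02, and Notch4 with 0.1 was 0.02; Notch3 was 0.01 and 0.03 for donor against control and 0.01 and 0.05 for donor against host, and Dtx1 in BMT stroma 0.11 and 0.14. With the day of euthanasia as replicate block, Notch4 in host cells was 0.02 and Hey1 in BMT stroma 0.20. The blocks changed no other call than those given in the report. In males alone Dtx1 was 0.03 and Notch1 -0.11 in BMT stroma and Nrarp 0.12 in host cells; in females alone Hey1 was 0.35 in BMT stroma; Jag1 in the interaction was -0.03 without a filter. With 1 library left out, the log2 fold changes ranged from -0.12 to 0.02 for Notch2 and -0.14 to 0.06 for Nrarp in host cells; from -0.08 to 0.19 for Notch1, -0.18 to 0.09 for Notch3 and -0.19 to 0.11 for Hey1 in BMT stroma; and from -0.68 to 0.33 for Dtx1, -0.07 to 0.48 for Notch4 and -0.14 to 0.80 for Nrarp in BMT CD11b cells.

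Counts of called genes moved by more than 1.5 times as follows. Host against control gave 1263 and 1229 on TPM, 850 with the replicate block by day, 479 in males and 121 in females, with 1 Notch gene in each sex, and 1527 to 2687 with 1 library left out (lowest without host N014). Donor against host gave 1146 and 1142 on TPM and 4605 with the animal as replicate block. BMT against control stroma gave 750 with DESeq2, 125 in males and 0 in females, with 0 Notch genes in females, and 272 to 593 with 1 library left out (highest without BMT N032). CD11b cells gave 59 without a filter, 291 with DESeq2, 2 and 3 on TPM, and 0 to 28 with 1 library left out (28 without BMT N187, 3 without BMT N129). Control stroma against control CD45.1+ cells gave 33112 without a filter. The stroma and CD45.1+ interaction called 0 Notch genes without a filter and 0 with the animal as replicate block. Fewer samples entered each single-sex fit. Low counts limit Hey1, Dll4, Notch3 and Notch4 in CD45-sorted cells, where a difference may not be detectable at this depth.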
